A study of Mus musculus with 12 samples.

Results

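The genes described are Fdft1, Sqle, Lss, Cyp51 and Tm7sf2, which encode the enzymes that carry cholesterol synthesis from farnesyl diphosphate through squalene and lanosterol to the first reduction after lanosterol. They were chosen by gene symbol, and all 5 were found among the 27105 genes of the count table. Liver RNA was sequenced from 12 mice, 6 fed a control diet and 6 fed a ketogenic diet, in which fat takes the place of most carbohydrate. The series design calls the 6 livers of each diet biological replicates. No strain, sex, age, diet composition or feeding time is stated in the labels. Libraries are named by diet and replicate number, as in control 1 or ketogenic 4.

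Cholesterol is built in the liver from acetyl-CoA. The mevalonate arm makes farnesyl diphosphate, which also feeds ubiquinone, dolichol and protein prenylation, and squalene synthase (Fdft1) is the first step that commits it to sterols. Squalene epoxidase (Sqle) adds the oxygen of the later hydroxyl group and is regarded as a control point of the sterol branch. Lanosterol synthase (Lss) folds the chain into the sterol rings, Cyp51 removes the methyl group at carbon 14 of lanosterol, and Tm7sf2 reduces the double bond that this leaves. Lbr, a protein of the inner nuclear membrane, has the same reductase activity as Tm7sf2. When sterols in the endoplasmic reticulum run low, the transcription factor SREBP-2 (Srebf2) is released and switches on genes along the whole pathway, with NF-Y, which binds CCAAT boxes, as a frequent partner at their promoters.

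All 5 genes passed the filter on low counts. Library totals were 30176579 to 33538911 counts over 18306 to 21938 genes with at least 1 count, and each enzyme gene held 440 to 16012 counts per library. Of 13995 genes tested with edgeR, 328 were higher and 201 lower on the ketogenic diet at an adjusted p under 0.05. Ketogenic 4 stood apart from its group (median correlation of 0.951 with the other ketogenic libraries, against 0.978 to 0.984 for the others). Its short transcripts were high and its long ones low (Spearman rho across genes of -0.58 between its deviation and transcript length). The next largest rho by size were 0.37 in ketogenic 1 and -0.33 in control 1. The hepatocyte markers Alb, Apoa1, Ttr, Cps1, Serpina1a and Cyp2e1 summed to 77930 to 116200 CPM (counts scaled to a common library size with TMM factors) on the control diet and 76940 to 100100 on the ketogenic diet. Of 6 hepatocyte markers, 1 was called (Cyp2e1, higher). Of 29 tested markers of macrophages, endothelium, stellate cells, bile duct, lymphocytes and red cells, 0 were called by edgeR, 4 had an unadjusted p under 0.05, and 0 were called by DESeq2 and 0 by limma-voom. Over all genes tested edgeR called 3.78% in either direction, so 0 of 29 lies near that share. The adipocyte marker Cfd was called higher, at 0.192 ± 0.145 CPM on the control and 9.84 ± 11.3 CPM on the ketogenic diet. Of 3 adipocyte markers in the count table, Cfd alone passed the filter on low counts. With Cfd included, the 3 summed to 0.0902 to 0.528 CPM on the control and 0.512 to 29.3 CPM on the ketogenic diet. The part of other cell types in the results was not tested. In bulk tissue, fewer cells of a type and less RNA per cell cannot be told apart.

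The promoters are shown because SREBP-2 and NF-Y act on genes of this pathway there. Windows from RefSeq (GRCm38.p6) were matched for 3 of the 5 genes, Lss, Cyp51 and Tm7sf2. Printed are the 250 bases before the RefSeq start of each gene, on the strand of the gene, with capitals for CCAAT boxes on either strand and for the sterol element-like letters TCACNNCA. The windows are chr10:76531355-76531604 (+) for Lss, chr5:4104698-4104947 (-) for Cyp51 and chr19:6067851-6068100 (-) for Tm7sf2.
Lss: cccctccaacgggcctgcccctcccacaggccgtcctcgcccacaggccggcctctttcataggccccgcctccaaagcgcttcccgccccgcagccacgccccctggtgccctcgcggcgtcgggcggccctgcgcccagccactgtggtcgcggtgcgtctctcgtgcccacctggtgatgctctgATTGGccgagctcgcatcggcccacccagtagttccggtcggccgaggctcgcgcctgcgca
Cyp51: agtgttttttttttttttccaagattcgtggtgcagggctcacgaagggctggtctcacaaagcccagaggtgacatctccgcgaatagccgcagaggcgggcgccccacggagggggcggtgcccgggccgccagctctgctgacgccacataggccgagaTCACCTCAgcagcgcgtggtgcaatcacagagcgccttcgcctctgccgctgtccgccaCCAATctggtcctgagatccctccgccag
Tm7sf2: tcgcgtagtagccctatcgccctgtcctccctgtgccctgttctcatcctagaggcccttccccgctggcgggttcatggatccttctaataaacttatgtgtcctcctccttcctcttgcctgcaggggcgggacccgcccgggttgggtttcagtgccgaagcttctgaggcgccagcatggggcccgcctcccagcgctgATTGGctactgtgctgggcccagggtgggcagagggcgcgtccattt
The RefSeq start lies downstream of the gene boundary in GENCODE M21, by 17 bases in Lss, 49 in Cyp51 and 523 in Tm7sf2, so the whole Tm7sf2 window lies inside the gene as GENCODE draws it. In the deposited annotation the gene Vps51, on the same strand, covers the first 532 bases of Tm7sf2. The Tm7sf2 window thus lies within Vps51 as well. Each of the 3 windows held a CCAAT box, at 62 to 58 bases before the RefSeq start in Lss (reverse strand), 29 to 25 in Cyp51 (forward) and 47 to 43 in Tm7sf2 (reverse), and each held the Sp1 letters GGGCGG. Over all 32851 windows of 300 bases, which reach 50 bases past the start, 37.4% held CCAAT and 35.7% GGGCGG on either strand. TCACNNCA was found in Cyp51 alone of the 3, at 88 to 81 bases before the RefSeq start as TCACCTCA, and in 13.8% of all windows. Its stricter form TCACNCCA, whose matches it includes, and the E-box CACGTG were found in 0 of the 3, against 4.36% and 7.15% of all windows. A match of letters is a description, not a binding site.

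The comparison asks how transcripts of these enzymes differ in liver after a ketogenic diet. Transcripts of Fdft1, Lss and Cyp51 rose by nearly the same factor, 3.78, 3.79 and 3.65-fold, and in each of them every ketogenic liver lay above every control liver. Sqle had an estimate of the same size, 3.70-fold, but its control livers differed by up to 7.70-fold among themselves and it was not called. Tm7sf2 had the smallest difference, 1.65-fold, and was not called either. Thus 3 of 5 genes were called higher and 0 lower, against 2.34% of all genes tested that were called higher. In the 3 called genes no diet overlap was seen, as in 2.17% of all genes tested, and each was called in all 22 alternatives. Without ketogenic 4 the log2 fold changes were 1.80 for Fdft1, 1.86 for Sqle, 1.98 for Lss, 1.82 for Cyp51 and 0.61 for Tm7sf2, with the same 3 genes called. The median log2 fold change of the 5 genes was 1.89, against -0.00 over all genes tested.

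**Figure D1:**
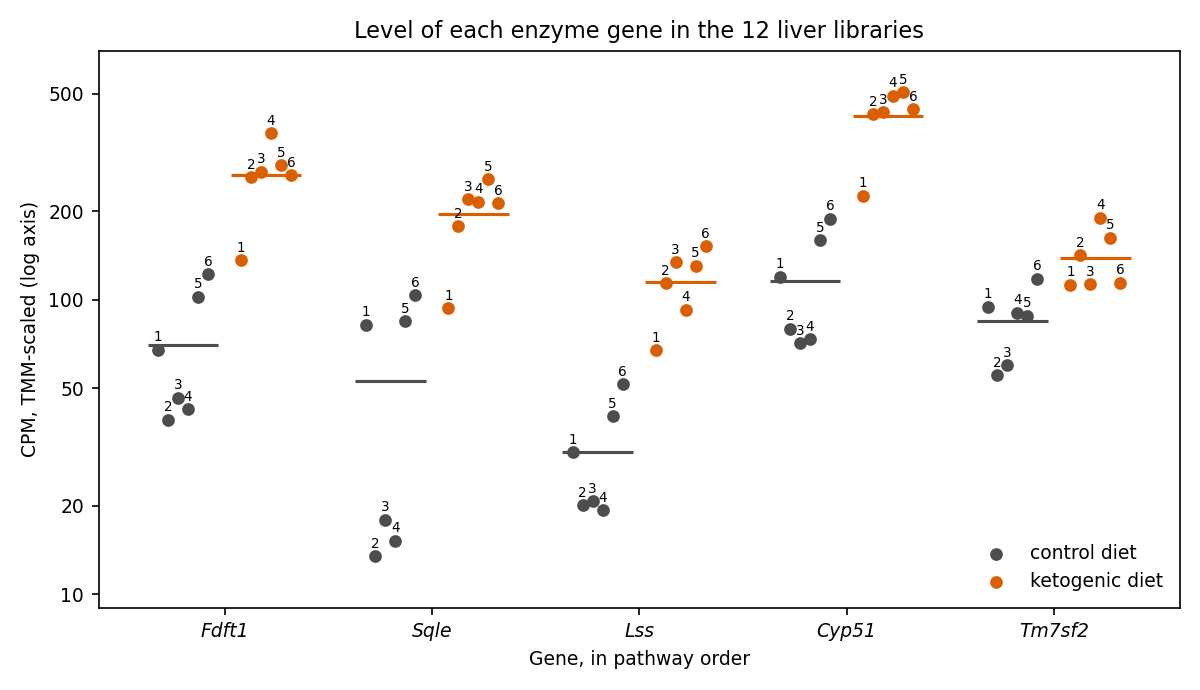
Level of each gene in the 12 libraries, in CPM on a log axis, with control libraries in grey, ketogenic libraries in orange, replicate numbers beside the points and lines at the means of each diet. In Fdft1, Lss and Cyp51 all 6 ketogenic points lie above all control points. In Sqle, controls 2, 3 and 4 lie at 13.4 to 17.9 CPM, below the other 9 libraries.

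Fdft1 (ENSMUSG00000021273, chromosome 14, 63382599 to 63417027, minus strand, positions as deposited, on a genome build that the labels do not name) joins a pair of farnesyl diphosphates into squalene. Its level was 39.2 CPM in the lowest control liver, 57.1 at the median and 122 in the highest, against 136, 269 and 367 CPM on the ketogenic diet. Controls 2, 3 and 4 were the low ones, control 6 the highest, and ketogenic 1 was the ketogenic liver nearest to the controls. Means were 70.1 ± 34.7 and 265 ± 74.1 CPM (SD, n = 6), and the gene rose by 1.92 ± 0.30 on the log2 scale (SE, edgeR adjusted p = 0.00285). The last 774 bases of Fdft1 overlap Ctsb, the abundant cathepsin B gene on the opposite strand. Ctsb was at 712 ± 91.3 CPM on the control and 631 ± 85.6 CPM on the ketogenic diet and was not called (adjusted p = 0.533).

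Sqle (ENSMUSG00000022351, chromosome 15, 59186926 to 59203041, plus strand) uses molecular oxygen to turn squalene into its epoxide. Its control levels fell into a low and a high set with a wide gap between them. Controls 2, 3 and 4 were at 13.4, 17.9 and 15.2 CPM, and controls 1, 5 and 6 at 82.4, 84.7 and 104 CPM. On the ketogenic diet it ran from 93.5 CPM in ketogenic 1 over a median of 214 to 256 CPM in ketogenic 5. Only ketogenic 1 overlapped the controls, lying below control 6. The means were 52.9 ± 41.6 and 196 ± 55.9 CPM, and the log2 fold change of 1.89 ± 0.53 did not pass the threshold (adjusted p = 0.0726). Without control 6 it did (2.19, adjusted p = 0.0486), as it did by DESeq2 (1.89, adjusted p = 0.0131) and limma-voom (2.33, adjusted p = 0.0361). Over its 22 alternatives the adjusted p ran from 0.0131 to 0.216.

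Lss (ENSMUSG00000033105, chromosome 10, 76367422 to 76392972, plus strand) closes the epoxide into lanosterol. Its level was 19.3, 25.5 and 51.6 CPM in the lowest, median and highest control liver and 67.5, 122 and 152 CPM on the ketogenic diet. The ranges did not overlap, with controls 2, 3 and 4 again lowest and ketogenic 1 lowest of its diet. Means were 30.4 ± 13.2 and 115 ± 30.7 CPM, and Lss rose by 1.92 ± 0.27 in log2 units (adjusted p = 0.00126). An lncRNA gene on the opposite strand, 4930483K19Rik, overlaps 11268 bases of Lss and held 1 to 15 counts per library.

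Cyp51 (ENSMUSG00000001467, chromosome 5, 4131145 to 4154746, minus strand) is the cytochrome P450 that demethylates lanosterol, and a P450 kept from yeast to mammals. Control livers ran from 71.2 over a median of 99.8 to 189 CPM, and ketogenic livers from 225 over 438 to 507 CPM. Ketogenic 1, at 225 CPM, stood apart from the other 5 ketogenic livers but above every control. Means were 115 ± 49.6 and 421 ± 101 CPM, and Cyp51 rose by 1.87 ± 0.27 in log2 units (adjusted p = 0.00147). Its last 166 bases overlap Akap9 on the opposite strand, which was at 36.7 ± 7.99 and 33.6 ± 10.4 CPM and was not called (adjusted p = 0.843).

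Tm7sf2 (ENSMUSG00000024799, chromosome 19, 6112851 to 6118403, minus strand), the sterol C14 reductase, was at 55.4, 89.3 and 118 CPM in the lowest, median and highest control liver. On the ketogenic diet it was at 112, 128 and 190 CPM. The groups overlapped through control 6 alone, which lay above ketogenic 1, 3 and 6. The means were 84.4 ± 23.3 and 139 ± 32.1 CPM, and the log2 fold change of 0.72 ± 0.19 lay just outside the threshold (adjusted p = 0.0547). It passed without control 6 (0.84, adjusted p = 0.0306), with DESeq2 (0.72, adjusted p = 0.00985) and with library size as the only scale (0.79, adjusted p = 0.0245), and over its 22 alternatives the adjusted p ran from 0.00985 to 0.123. Tm7sf2 shares 532 bases with Vps51 on the same strand, which was at 18.0 ± 1.29 and 19.3 ± 1.73 CPM (adjusted p = 0.668).

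Lbr, the other C14 reductase, was at 14.4 ± 1.14 and 16.1 ± 2.98 CPM and was not called (0.16 ± 0.13 on the log2 scale, adjusted p = 0.616). Each of the 2 genes for this reaction was higher on the ketogenic diet by mean, and neither was called.

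Whether the 5 genes differed in their response was tested with ratios of counts within a library, which do not depend on how libraries are scaled. Such ratios still carry a library's trend on transcript length. Its part in the ratios to Tm7sf2, the shortest transcript (1.47 kb), was not tested. For each of the 10 pairs, the log2 ratio was compared between diets. Against Tm7sf2, the ratio rose for Fdft1 by 1.26, from -0.36 ± 0.46 to 0.90 ± 0.35 (SD, n = 6, exact permutation p = 0.00216, adjusted over the 10 pairs 0.00722). It rose for Lss by 1.24, from -1.53 ± 0.39 to -0.29 ± 0.55, and for Cyp51 by 1.19, from 0.39 ± 0.40 to 1.58 ± 0.36, both with the same exact permutation p, the smallest that all splits of 6 against 6 can give. In these 3 pairs the diets did not overlap, and the call held in all 12 fits with 1 library left out. For Sqle the ratio to Tm7sf2 rose by 1.59, from -1.13 ± 1.11 to 0.46 ± 0.47 (adjusted exact permutation p = 0.0216), and the call was lost without ketogenic 2, 3, 4, 5 or 6 (adjusted p up to 0.0703).

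**Figure D2:**
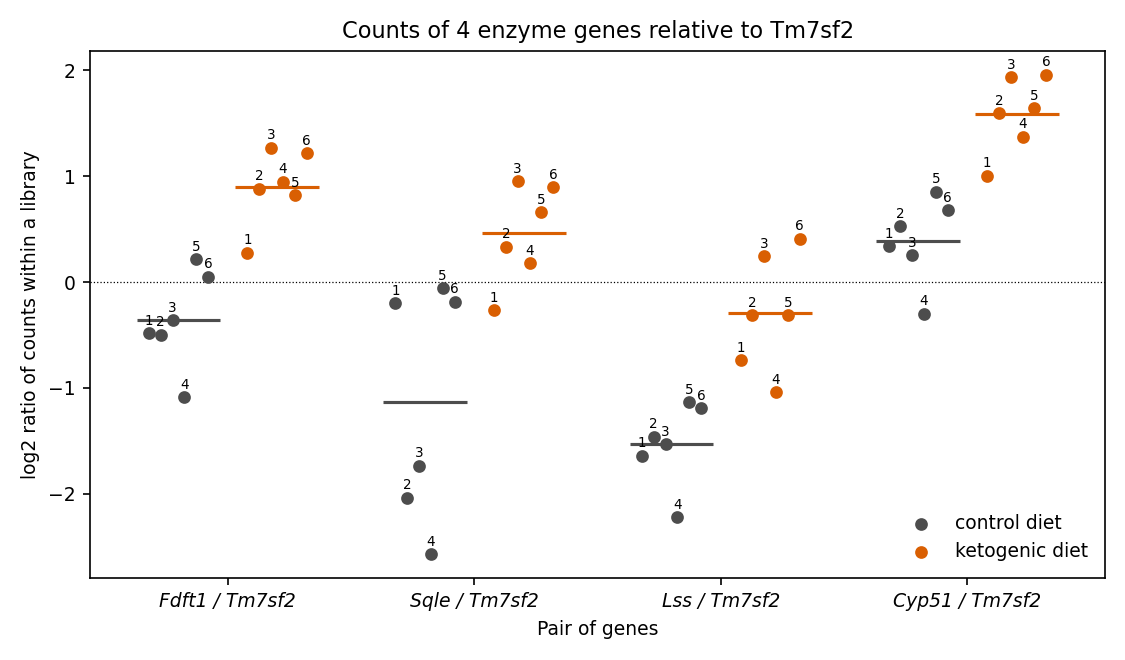
Log2 ratio of the counts of Fdft1, Sqle, Lss and Cyp51 to those of Tm7sf2 in each library, control in grey and ketogenic in orange, with replicate numbers and lines at the means. The Fdft1 ratio is at most 0.21 in control and at least 0.28 in ketogenic libraries, while the Sqle ratios overlap.

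Among Fdft1, Lss and Cyp51 the proportions moved little. The ratio of Fdft1 to Cyp51 was -0.75 ± 0.16 and -0.68 ± 0.14 on the log2 scale (difference 0.07, exact permutation p = 0.448), that of Lss to Cyp51 -1.92 ± 0.08 and -1.87 ± 0.30 (0.05, p = 0.742 by the same exact test), and that of Fdft1 to Lss 1.17 ± 0.13 and 1.19 ± 0.41 (0.02, exact permutation p = 0.937). These p-values do not show that the genes respond alike. Ketogenic 4 had a log2 Fdft1 to Lss ratio of 1.99, far from the 0.81 to 1.19 of the other ketogenic livers. The transcripts are 3.70 kb (Fdft1) and 4.67 kb (Lss) long, and the part of the length trend in that library was not tested for this ratio. The differences for Sqle against Fdft1, Lss and Cyp51 did not pass either (exact permutation p = 0.348, 0.359 and 0.260, adjusted 0.513 for each). Sqle to Cyp51 was -1.52 ± 0.85 in control and -1.13 ± 0.13 in ketogenic livers. In the low controls 2, 3 and 4 it was between -2.56 and -1.98, and in controls 1, 5 and 6 between -0.91 and -0.54. Sqle was thus lower relative to Cyp51 in those 3 livers than in every other liver of either diet.

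Some livers kept their place from gene to gene. On the ketogenic diet, ketogenic 1 was the lowest in all 5 genes, while ketogenic 4 was the highest in Fdft1 and Tm7sf2 and next to lowest in Lss. On the control diet, control 6 was the highest in all 5, and controls 2, 3 and 4 were the 3 lowest in each gene except Tm7sf2, in which control 5 took the place of control 4. Summed over the 5 genes, controls 2, 3 and 4 held 208, 216 and 241 CPM and controls 1, 5 and 6 held 395, 475 and 584, while ketogenic 1 held 635 and the other ketogenic livers 1120.0 to 1357. The spread was large for liver transcripts, with an SD of log2 CPM among controls of 1.40 for Sqle, 0.69 for Fdft1, 0.61 for Cyp51, 0.59 for Lss and 0.42 for Tm7sf2, against a median of 0.24 over all genes tested. Among ketogenic livers it was 0.32 to 0.52, against a median of 0.32.

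No correlation was taken among the control livers, because controls 2, 3 and 4 were the 3 lowest in Fdft1, Sqle, Lss and Cyp51. The gap between these and control 1, the next one up, was widest in Sqle (17.9 to 82.4 CPM). It was 46.5 to 67.6 CPM in Fdft1, 20.7 to 30.3 in Lss and 79.7 to 120 in Cyp51, where the levels were graded. Pairs with Tm7sf2, in which control 4 was not among the 3 lowest, were left out as well. Among the 6 ketogenic livers, Sqle and Cyp51 had a Pearson r of 0.98 (exact permutation p = 0.00556, adjusted over the 10 pairs 0.0556) and a Spearman rho of 0.83 (exact permutation p = 0.0583). Without ketogenic 1 and 2, the livers farthest from the median of Sqle, r was 0.65, so the relation rests largely on them. Fdft1 and Cyp51 had an r of 0.96 (exact permutation p = 0.0167, adjusted 0.0833) and a rho of 0.89 (exact permutation p = 0.0333), and r was 0.90 without ketogenic 1 and 4. None of the 10 pairs passed after adjustment, and Lss and Tm7sf2 had an r of -0.08 (exact permutation p = 0.863).

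Levels between genes were compared as CPM per kb of transcript, with 1 length per gene (3.93 kb for Cyp51, 1.47 kb for Tm7sf2). The order depends on these lengths. By mean CPM, Cyp51 lay above Tm7sf2 on the control diet too (115 against 84.4), though not in control 4. On the control diet Tm7sf2 was the highest, at 57.4 ± 15.9 CPM per kb, and lay above Cyp51, at 29.4 ± 12.6, in 6 of 6 livers. Sqle (19.2 ± 15.1) and Fdft1 (18.9 ± 9.38) had close means, each being the higher one in 3 of 6 livers. Fdft1 was the higher in controls 2, 3 and 4, and Sqle in controls 1, 5 and 6. Lss was lowest at 6.51 ± 2.82. On the ketogenic diet Cyp51 came first, at 107 ± 25.8 CPM per kb, above Tm7sf2, at 94.5 ± 21.8, in 4 of 6 livers. Fdft1 (71.5 ± 20.03) and Sqle (71.0 ± 20.3) again had close means, with Fdft1 above Sqle in 3 of 6 livers. Lss was last at 24.7 ± 6.58. Tm7sf2 thus lay above Cyp51 in all 6 control livers but in 2 of 6 ketogenic livers.

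**Figure D3:**
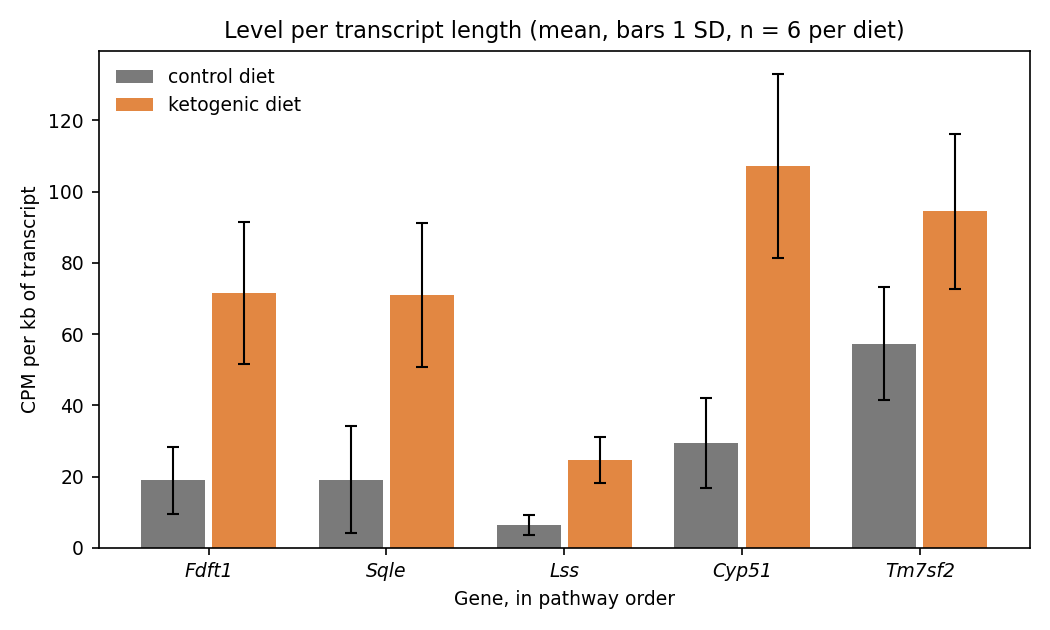
Mean level of each gene in CPM per kb of transcript with bars of 1 SD (n = 6 per diet), control in grey and ketogenic in orange. Tm7sf2 is the highest on the control diet at 57.4, and Cyp51 the highest on the ketogenic diet at 107.

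The other genes of the pathway, taken by role, place the 5 enzymes. All 8 genes of the mevalonate arm rose by edgeR (median log2 fold change 2.09, range 1.15 to 2.46), against 2.34% of all genes tested. Mvk, mevalonate kinase, rose from 12.6 ± 4.86 to 57.5 ± 16.97 CPM (2.18 ± 0.26, adjusted p = 0.000425), Acat2, which joins acetyl-CoA units in the cytosol, by 1.15 ± 0.16 (adjusted p = 0.00125) and Hmgcs1, HMG-CoA synthase, by 2.46 ± 0.35 (adjusted p = 0.00147). With control 1, 2 or 3 or ketogenic 3, 4 or 6 left out, 5 of the 8 were called.

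**Figure D4:**
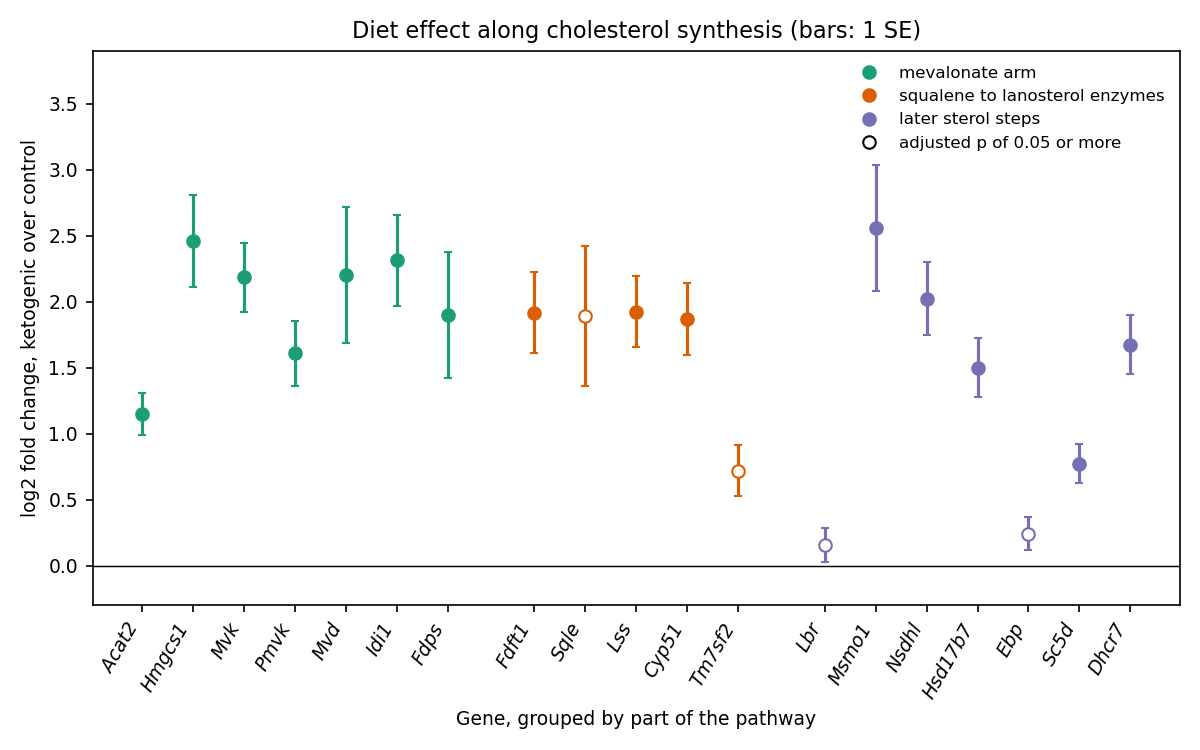
Log2 fold change, ketogenic over control, with bars of 1 SE. Shown are 7 genes of the mevalonate arm (green), the 5 enzyme genes Fdft1 to Tm7sf2 (orange) and 7 later steps (purple). The legend labels the orange points squalene to lanosterol enzymes. Filled points have an adjusted p under 0.05. Fdft1, Sqle, Lss and Cyp51 lie between 1.87 and 1.92, while Tm7sf2, Lbr and Ebp lie at 0.72 or lower.

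Of 8 genes of the later sterol steps, 5 rose and 3 were not called (median 1.14), against 2.34% of all genes tested that were called higher. Dhcr7, the last reductase, rose from 48.6 ± 16.9 to 155 ± 35.4 CPM (1.67 ± 0.22, adjusted p = 0.000978), Nsdhl, a dehydrogenase of the demethylation at carbon 4, by 2.02 ± 0.27 (adjusted p = 0.00103) and Hsd17b7, its partner reductase, 2.83-fold (adjusted p = 0.00185). Msmo1, the methyl oxidase that opens that demethylation, rose by 2.56 ± 0.48 (adjusted p = 0.00950). Among 10 genes of SREBP control and sterol uptake, 2 rose and 0 fell. These were Srebf2, from 68.7 ± 16.3 to 118 ± 17.5 CPM (0.78 ± 0.16, adjusted p = 0.0128), and Stard4, a sterol carrier (0.72 ± 0.15, adjusted p = 0.0156). Insig1, which holds SREBP in the endoplasmic reticulum, was not called (1.05 ± 0.38, adjusted p = 0.161), but passed with DESeq2 (adjusted p = 0.0446) and without control 6 (1.45, adjusted p = 0.0211).

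Sqle and Cyp51 take electrons from the cytochrome P450 reductase Por, which was at 288 ± 73.5 and 445 ± 118 CPM (0.63 ± 0.20, adjusted p = 0.107) and passed with DESeq2 alone of the alternatives (adjusted p = 0.0424). Of all 13995 genes tested, 328 were called higher and 201 lower. Of 7 genes of electron supply and of degradation of these enzymes, 0 rose and 1 fell. That gene was the cytochrome b5 reductase Cyb5r3, which went from 514 ± 59.0 to 367 ± 36.7 CPM (-0.48 ± 0.11, adjusted p = 0.0206), and it was no longer called once ketogenic 3 or 6 was left out (range of adjusted p 0.00555 to 0.0553). Cyb5a, cytochrome b5, had a log2 difference of 0.42 ± 0.14 (adjusted p = 0.120) and passed with library size only (0.50, adjusted p = 0.0493). Other users of farnesyl diphosphate, which compete with Fdft1 for its substrate, held 0 calls by edgeR among 8 genes (median 0.14, range -0.18 to 0.33). Over all genes tested 3.78% were called in either direction, so 0 of 8 lies near that share. Of the 8, 1 had an unadjusted p under 0.05 by edgeR and 0 were called by DESeq2. Pdss2, of ubiquinone synthesis, had the smallest p of these (0.26 ± 0.09, adjusted p = 0.148). Whether the 2 sides of the branch at farnesyl diphosphate differ was not tested.

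The pattern between livers of one diet was compared across 12274 genes with at least 1 CPM, after subtraction of the diet means over the 12 libraries. Each enzyme was set against the mean of the other 4. Fdft1 (r of 0.96) and Cyp51 (0.97) were the most similar of all genes ranked, Sqle (0.93) was 4th, Lss (0.84) 36th and Tm7sf2 (0.66) 318th. Outside the 5 genes, the highest r with their mean profile were those of Msmo1 (0.96), Mvd (0.95), Nabp1 (0.95), Idi1 (0.94), Poc1a (0.91), Dhcr7 (0.90), Gars (0.90) and Nsdhl (0.90). Of these 8, 5 belong to cholesterol synthesis. Nabp1, which codes for a single-stranded DNA binding protein, Poc1a, a centriole protein, and Gars, glycyl-tRNA synthetase, do not, and had log2 diet differences of 0.45, 0.12 and 0.08, none of them called (adjusted p = 0.455, 0.845 and 0.829). These r values share the same 12 libraries and scaling, and they are a description only. They also take in the 6 control livers, in which controls 2, 3 and 4 were the 3 lowest for Fdft1, Sqle, Lss and Cyp51. The part of that split in the r values was not tested. Without ketogenic 4, 5 of the 8 genes remained among the 8 most similar. Of the lists, 6 of 8 genes of the mevalonate arm, 3 of 8 of the later steps and 2 of 10 of SREBP control were among the 100 most similar genes.

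Outside their sequence of reactions, the 5 genes were described by position, annotation and transcript length. They lie on 5 different chromosomes. The deposited annotation gives all 5 of them the term endoplasmic reticulum, which 1240 genes carry. Transcript lengths run from 1.47 kb for Tm7sf2 to 4.67 kb for Lss. With the trend on transcript length removed from each library, the log2 fold changes were 1.95 for Fdft1, 1.88 for Sqle, 1.95 for Lss, 1.90 for Cyp51 and 0.66 for Tm7sf2, the last then called by edgeR (adjusted p = 0.0295).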

How the data were processed

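RNA of 12 mouse livers was measured, 6 on each diet. The authors deposited 1 table of raw counts per gene, whole numbers with no normalization. Per the submitters' processing notes, the tools were HISAT2 2.1.0, fastp 0.19.3, Cufflinks and StringTie 1.3.4d, without roles. The labels do not say which program, strand setting, annotation or genome was used for counting. Whether molecular identifiers were used is not stated either.

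The deposited counts were compared between diets in R 4.3.3 with edgeR 4.0.16. Genes were filtered with filterByExpr, which left 13995, scaled by TMM, and tested by robust quasi-likelihood with diet as its single term. Adjusted p-values are Benjamini-Hochberg values over all genes tested. CPM values use TMM-scaled library sizes. Standard errors were taken as the absolute log2 fold change over the root of F. Log2 ratios of counts between enzyme genes, with a prior count of 2, were compared between diets by exact permutation of all 6 against 6 splits (two-sided), adjusted over the 10 pairs. Transcript lengths are those of the longest principal transcript in GENCODE M21 (GRCm38), found for 13972 (99.8%) of the genes tested.

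The genes named are the 5 enzyme genes, up to 3 genes with the smallest p in each pathway list, Srebf2, Lbr and Por, and the 8 genes with the most similar pattern. Some other genes that the rule names are not reported here. The enzyme genes and lists were chosen with earlier results of these data known. On simulated counts for the 13995 genes, 62 of 100 genes given a log2 change of 1 were called, as were 93 of 100 given 2, with 12 unchanged genes among 167 calls. Alternatives were DESeq2 1.42.0, limma-voom (limma 3.58.1), other scaling and filters, removal of a length trend, the replicate number as a block, and each library left out.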

Additional observations from a re-analysis of the deposited data

Results flagged for a closer look

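Among 30 groups of 6 libraries checked for a single library far from the rest, 2 held one whose gap to its nearest neighbour, divided by the range of the group, passed Dixon's critical value at the 95% level. Chance flags about 1 in 20 groups. In Cyp51, ketogenic 1 was the lowest ketogenic liver at 225 CPM, with a gap of 0.716 of the range. In the log2 ratio of Fdft1 to Lss, ketogenic 4 was the highest at 1.99, with a gap of 0.674 of the range, and its Spearman rho between deviation and transcript length was -0.58.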

How the results depend on the processing

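Fdft1, Lss and Cyp51 kept their direction and call in all 22 alternatives, with log2 fold changes of 1.79 to 2.15, 1.82 to 2.14 and 1.77 to 2.06. Sqle passed the threshold with DESeq2 (1.89) and limma-voom (2.33), and ran from 1.69 to 2.19 with 1 library left out. Tm7sf2 passed with DESeq2 (0.72), library size only (0.79), without a filter on low counts (0.72) and the length trend removed (0.66), and ran from 0.61 to 0.84 with 1 library left out. Of the 5 genes, 5 were called with DESeq2 and 3 to 5 with 1 library left out, 5 of them without control 6. Over all genes, 588 were called higher with DESeq2, 175 with the replicate block and 213 to 445 with 1 library left out. Called lower were 440 with DESeq2, 127 with library size only, which shifted the median of all genes by 0.07, 93 with the replicate block, 333 with the length trend removed and 106 to 316 with 1 library left out. Of the mevalonate arm, 5 genes were called with no filter and 5 to 8 with 1 library left out. Of the electron donor and degradation list, 1 gene was called higher with DESeq2 and 1 with library size only, and 0 lower with library size only, with all genes kept or with the replicate block, and 0 to 1 with 1 library left out. The cause of these changes was not tested.

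Correlations of same-numbered deviations ran from -0.29 to 0.34, and only numbers 2 and 6 matched their own number best. These values cannot decide whether same-numbered livers were paired, since ketogenic 2 was the best match of controls 2, 3 and 4 alike. With the replicate block the log2 fold changes were 2.00 for Fdft1, 2.34 for Sqle, 1.98 for Lss, 1.93 for Cyp51 and 0.74 for Tm7sf2, with the same calls. The paired ratios to Tm7sf2 differed by 1.26 for Fdft1, 1.59 for Sqle, 1.24 for Lss and 1.19 for Cyp51 and were not called after adjustment. The smallest p of that exact sign-flip test over 64 flips is 0.03125, which 4 pairs would bring to 0.0781 after adjustment. The Sqle ratio ran from 1.301 to 1.803 with 1 library left out. Without ketogenic 4, 5 of the 8 most similar genes remained. Planned correlations within the control diet were not computed, because controls 2, 3 and 4 were lowest in Fdft1, Sqle, Lss and Cyp51.

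Precision is limited by 6 livers per diet, by the spread of Sqle among controls and by a strand setting that is not given, which leaves reads of the opposite-strand overlaps of Fdft1, Lss and Cyp51 unassigned to a gene by position alone. The 532 bases that Tm7sf2 shares with Vps51 are on the same strand, so no strand setting separates the 2 genes there.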
